A study of Rattus norvegicus with 70 samples.

Results

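The 10 genes of tissue macrophages described here were followed through 5 organs of rats exposed to bisphenols: Aif1, C1qa, C1qb, C1qc, Marco, Cd68, Clec12a, Gpnmb, Csf1r and Cd163. These 10 members are 10 of the 17048 gene rows of the deposited count table. They were chosen by values measured in these same libraries, because macrophage genes appeared among earlier results of treatment comparisons. A treatment difference of a member is therefore given as a description where earlier results named macrophage genes (male liver against vehicle, female liver Mix against BPA) and where it is not known which results were in view (female kidney, thyroid, testis and ovary). No p is printed for a member there. Levels across organs, levels in the sexes and the remaining treatment comparisons were tested. The treatment comparisons of male kidney apart, these tests use libraries that also stand in the described comparisons. Their p-values are therefore not free of the choice of members.

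The 70 libraries count the 3′ ends of messenger RNA (QuantSeq) in 5 organs (liver, kidney, thyroid and the gonads) taken from Sprague-Dawley rats at postnatal day 63. Dams received vehicle, bisphenol A (BPA) or a mixture (Mix) of BPA, bisphenol F and bisphenol S, between gestational day 6 and lactation day 6, and their litters were culled on postnatal day 4. The pups were then dosed themselves from postnatal day 7 to 63; every treated dam received 500 mg/kg/day in total (in the Mix 160 of BPA, 160 of bisphenol F and 180 of bisphenol S) and every treated pup 250 mg/kg/day in total. Each organ, sex and treatment has 3 libraries, except female kidney with 2 vehicle, 2 BPA and 3 Mix libraries, and recurring animal codes show that organs of the same rats were sequenced. The litter of a rat is not given in the labels, so littermates among the replicates cannot be told apart from unrelated rats.

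Macrophages settle in every organ and clear dying cells, debris and microbes. They depend on the receptor Csf1r, which binds the growth factors Csf1 and Il34. Resident macrophages make the 3 chains of complement C1q, the recognition protein of the classical complement pathway, while their scavenger receptors and lysosomal proteins differ from organ to organ. Marco is a scavenger receptor that binds bacteria and particles, Cd163 takes up haemoglobin bound to haptoglobin, Cd68 is a lysosomal membrane glycoprotein, and Gpnmb is a membrane glycoprotein of macrophages handling lipid and debris, also made by pigment cells. Clec12a is an inhibitory C-type lectin of myeloid cells, and Aif1 is a calcium-binding protein of the macrophage cytoskeleton, known also as Iba1.

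The promoters of 5 members whose levels carry the results below are shown, because PU.1, the factor that directs macrophage development, binds sites with the core GAGGAA. Each window runs from 250 bases before to 50 bases after the annotated start of the gene, from RefSeq on build GRCr8, while the counts were made on build rn6. Capitals mark matches, on either strand, to the PU.1 core GAGGAA, the C/EBP letters TTGCNNAA or the E-box letters CACGTG or CATGTG, which proteins of the MITF and TFE family can bind. No match shown overlaps one of another motif. The lines give Marco (chr13:34201206-34201505, minus strand), C1qa (chr5:154419884-154420183, minus strand), C1qb (chr5:154407778-154408077, minus strand), Clec12a (chr4:164483912-164484211, plus strand) and Gpnmb (chr4:79340878-79341177, plus strand).
Marco: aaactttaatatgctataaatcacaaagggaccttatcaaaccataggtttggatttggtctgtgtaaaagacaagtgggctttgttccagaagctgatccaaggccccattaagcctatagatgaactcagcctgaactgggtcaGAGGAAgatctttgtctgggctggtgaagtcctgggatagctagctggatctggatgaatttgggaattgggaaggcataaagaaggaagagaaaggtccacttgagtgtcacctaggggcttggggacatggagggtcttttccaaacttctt
C1qa: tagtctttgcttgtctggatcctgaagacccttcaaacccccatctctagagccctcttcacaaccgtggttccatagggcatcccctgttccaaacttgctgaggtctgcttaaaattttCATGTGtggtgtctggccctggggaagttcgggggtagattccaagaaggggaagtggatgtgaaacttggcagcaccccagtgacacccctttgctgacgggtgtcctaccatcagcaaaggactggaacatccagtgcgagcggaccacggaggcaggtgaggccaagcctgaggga
C1qb: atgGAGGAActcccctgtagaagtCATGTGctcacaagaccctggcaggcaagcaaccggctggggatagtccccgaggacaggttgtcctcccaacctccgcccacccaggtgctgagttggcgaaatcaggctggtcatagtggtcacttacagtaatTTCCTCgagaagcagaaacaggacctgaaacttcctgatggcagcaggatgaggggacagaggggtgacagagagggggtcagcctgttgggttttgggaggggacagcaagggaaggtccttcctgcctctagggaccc
Clec12a: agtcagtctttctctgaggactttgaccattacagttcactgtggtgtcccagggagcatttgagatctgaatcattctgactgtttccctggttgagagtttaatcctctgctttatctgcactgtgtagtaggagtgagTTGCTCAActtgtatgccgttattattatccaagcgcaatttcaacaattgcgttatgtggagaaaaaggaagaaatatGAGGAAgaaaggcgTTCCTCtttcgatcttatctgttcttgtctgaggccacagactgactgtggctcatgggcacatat
Gpnmb: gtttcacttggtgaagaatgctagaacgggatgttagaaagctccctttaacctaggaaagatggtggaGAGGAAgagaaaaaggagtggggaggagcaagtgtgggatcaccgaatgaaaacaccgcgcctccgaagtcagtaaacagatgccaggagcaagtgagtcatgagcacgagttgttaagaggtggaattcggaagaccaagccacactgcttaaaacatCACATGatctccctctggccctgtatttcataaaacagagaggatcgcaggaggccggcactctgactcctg

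Of the 10 members, 8 have a window in the RefSeq table; Aif1 and C1qc have none there. The PU.1 core was found in 6 of the 8 windows, those of C1qb, Marco, Cd68, Clec12a, Gpnmb and Csf1r, beside 27.6% of all 33469 windows. The E-box letters stood in 4 of the 8, those of C1qa, C1qb, Cd68 and Gpnmb, beside 19.7% of all windows. The C/EBP letters stood in 1 of the 8, that of Clec12a, beside 10.6%. A match of letters is a description of the sequence and does not show that a factor binds there.

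Library totals ran from 4803807 to 10929957 counts. Levels are given as CPM, counts per 1000000 counts outside the ribosomal RNA rows. The limit that a count of 0 allows, 3 counts, corresponded to between 0.278 and 0.829 CPM and covers counting error only. The intervals of log2 differences come from the edgeR fits and include the spread between libraries. Ribosomal RNA rows took between 0.66% and 37.2% of a library. The spermatid gene Tnp1 and the hepatocyte gene Alb were counted outside their organs in several libraries: Tnp1 reached 10191 CPM in male thyroid BPA replicate 1 and 3027 and 1524 CPM in female thyroid vehicle replicates 1 and 2, where Alb reached 2898 and 859 CPM. These are whole organs, so fewer macrophages and less RNA per macrophage cannot be told apart in any value below.

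The order of organs by level was not the same for all members. The C1q chains were highest in liver and ovary, intermediate in thyroid, low in kidney and lowest in testis. C1qa had a median of 97.1 CPM in liver (18 libraries, 54.3 to 166), 73.8 CPM in ovary (9 libraries, 47.6 to 137), 27.5 CPM in thyroid (18 libraries, 9.61 to 46.7), 17.6 CPM in kidney (16 libraries, 11.1 to 29.8) and 7.54 CPM in testis (9 libraries, 5.19 to 14.5). C1qb followed the same order of medians except that ovary came first, with 127.9 CPM in ovary, 124 CPM in liver, 65.3 CPM in thyroid, 28.7 CPM in kidney and 5.99 CPM in testis. C1qc had medians of 124 CPM in liver, 104 CPM in ovary, 36.5 CPM in thyroid, 28.4 CPM in kidney and 8.06 CPM in testis. The ranges of neighbouring organs overlapped, except that testis lay below every other organ for C1qb and C1qc, and that the lowest ovary for C1qa, at 47.6 CPM, lay above the highest thyroid at 46.7 CPM.

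The scavenger receptors differed from each other in their spread over organs. Marco was counted in all 18 liver libraries at 16.7 to 94.2 CPM, in none of the 9 ovary libraries and in 1 of the 9 testis libraries, with 1 count. In kidney it had no count in 11 of 16 libraries and at most 1.02 CPM, and in thyroid no count in 14 of 18. The highest thyroid values, 3.76 and 4.32 CPM, were in female vehicle replicates 1 and 2, the libraries that also held the Alb and Tnp1 counts given above; whether the Marco counts there come with liver RNA was not tested. Cd163 had a median of 22.9 CPM in liver, 10.8 CPM in thyroid, 10.5 CPM in ovary, 6.02 CPM in testis and 0.273 CPM in kidney, where 5 of 16 libraries had no count.

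Csf1r, the growth factor receptor, had medians close to each other outside the testis. Its medians were 33.5 CPM in liver, 33.0 CPM in thyroid, 30.7 CPM in kidney and 30.7 CPM in ovary, and 5.73 CPM in testis, whose highest library at 7.82 CPM lay below the lowest library of any other organ at 16.1 CPM. Aif1 was about as even outside the testis, with medians from 31.0 to 34.4 CPM. In the test of vehicle rats below, Csf1r was higher in male thyroid than in male kidney. Of its ligands in vehicle rats, Csf1 ranged from 1.93 to 14.8 CPM over all organs. Il34 averaged 119 ± 22.8 CPM (SD, n = 3) in male kidney, 94.8 ± 14.8 CPM (SD, n = 3) in testis and 91.8 ± 31.2 CPM (SD, n = 2) in female kidney. In vehicle liver Il34 averaged 7.19 ± 2.11 CPM in males and 7.70 ± 5.38 CPM in females (SD, n = 3 each). Neither ligand passed in any of the 24 treatment comparisons.

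Gpnmb and Clec12a were highest in ovary. Gpnmb had a median of 220 CPM in ovary (76.8 to 474), 24.05 CPM in thyroid, 13.4 CPM in liver, 3.10 CPM in kidney and 2.83 CPM in testis. The highest thyroid library, female vehicle replicate 3 at 109 CPM, overlapped the ovary range. The pigment cell genes Mlana and Tyr together were at 0 CPM in all 3 vehicle and all 3 BPA ovaries and at most 0.205 CPM in a Mix ovary. Clec12a had a median of 9.27 CPM in ovary (7.56 to 51.4), 2.45 CPM in kidney, 0.623 CPM in thyroid, 0.503 CPM in liver and 0.106 CPM in testis, and every ovary library lay above every library of another organ. Cd68 had a median of 21.9 CPM in ovary, 18.5 CPM in liver, 7.71 CPM in thyroid, 4.48 CPM in kidney and 1.46 CPM in testis.

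**Figure D1:**
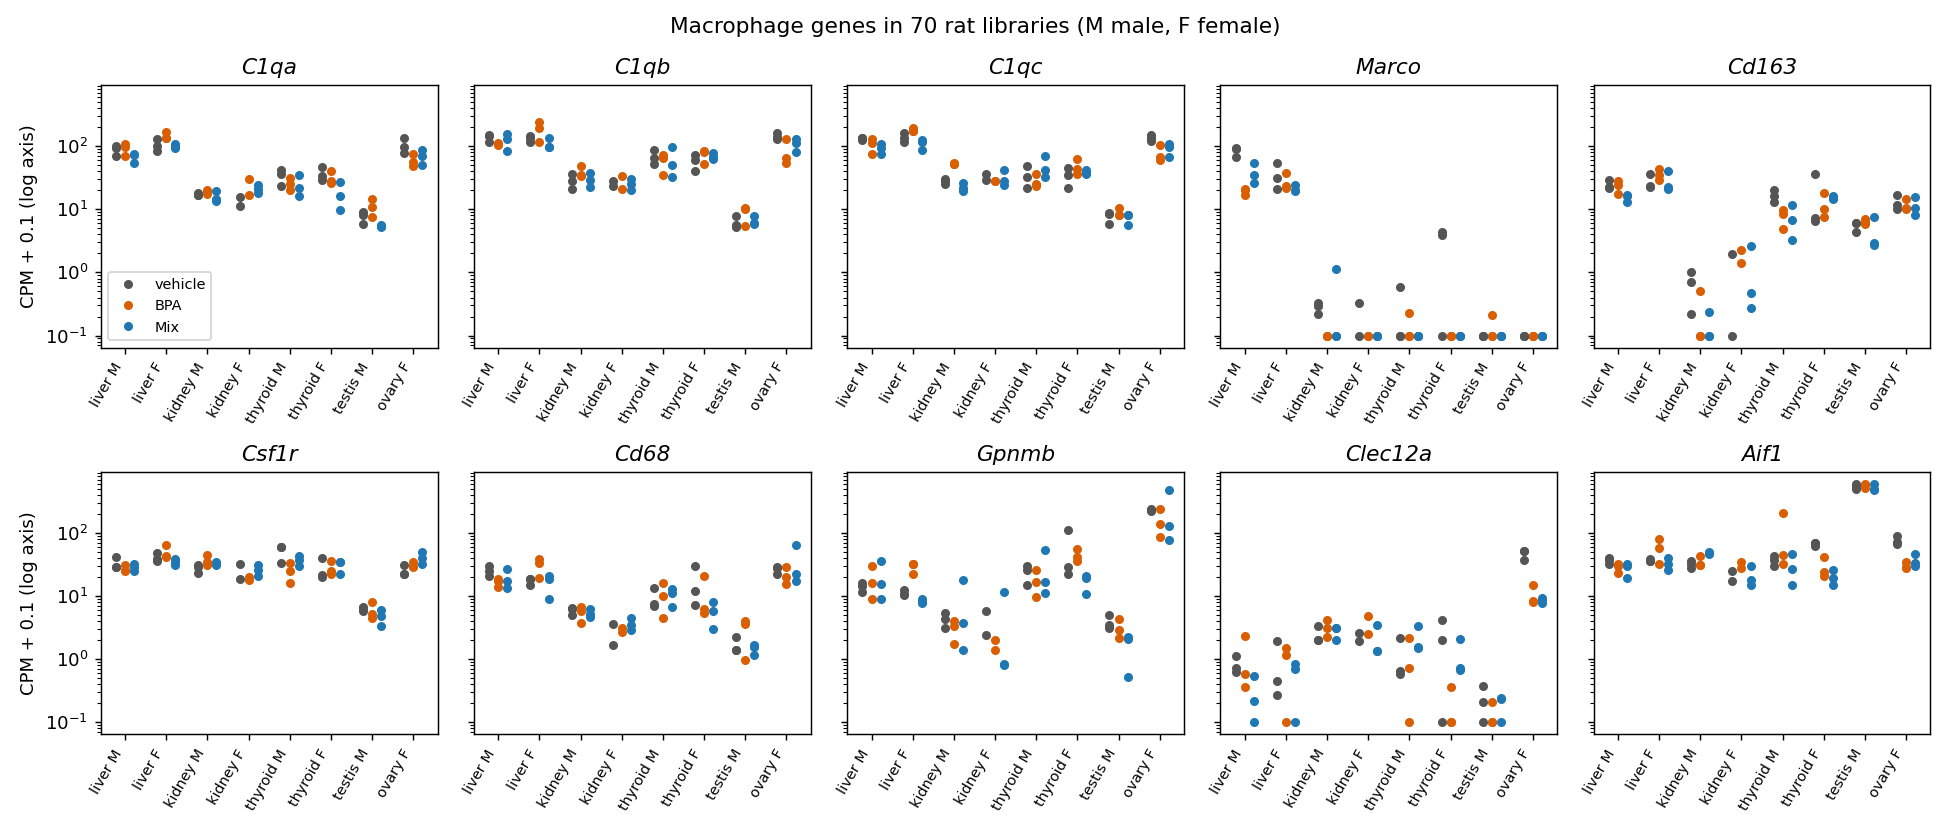
Levels of the 10 members in each of the 70 libraries, as CPM plus 0.1 on a log axis, by organ and sex (M male, F female), with vehicle, BPA and Mix libraries in grey, orange and blue. Marco stands out in liver at 16.7 to 94.2 CPM, Clec12a in ovary at 7.56 to 51.4 CPM, and Aif1 in testis at 484 to 604 CPM.

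Organ levels were compared in vehicle rats with edgeR's quasi-likelihood test, with the rat as a block and Benjamini-Hochberg adjustment over all rows. Plain library-size scaling moved the median of all rows by up to 1.20 on the log2 scale against TMM scaling in the pairs with liver, and by up to 0.36 in those of testis with kidney or thyroid, so a difference is named here only where it passed the adjusted threshold of 0.05 in the same direction under both. On that rule 43 of 60 member and organ-pair differences held in males and 33 of 60 in females. Under TMM alone, 46.3% of all rows tested passed for male liver against kidney, 57.4% for liver against thyroid, 78.1% for liver against testis, 49.9% for kidney against thyroid, 77.7% for kidney against testis and 77.5% for thyroid against testis. In females the shares were 20.3% for liver against kidney, 41.6% for liver against thyroid, 30.8% for liver against ovary, 25.7% for kidney against thyroid, 19.2% for kidney against ovary and 24.5% for thyroid against ovary. These shares count either direction under TMM alone. No share of all rows was computed for the rule of both scalings, so the member counts below have no like share beside them.

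Liver exceeded kidney for 7 of the 10 members in males and 8 in females under both scalings, and no member was higher in kidney. Marco averaged 84.2 ± 14.6 CPM (SD, n = 3) in male vehicle liver and 35.5 ± 17.1 CPM (SD, n = 3) in female vehicle liver. With all 3 vehicle testis libraries at 0, the male liver mean was at least 247-fold higher than 3 counts in the shallowest of them, and with all 3 vehicle ovary libraries at 0 the female liver mean was at least 54.3-fold higher. Cd163 was higher in male liver than in male kidney by a log2 difference of 6.41 ± 0.41 (SE, adjusted p = 2.3e-07) and in male thyroid than in male kidney by 4.88 ± 0.41 (SE, adjusted p = 2.2e-06). C1qa exceeded its kidney level in male liver by a log2 difference of 3.33 ± 0.26 (SE, adjusted p = 1.0e-06).

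Against testis, male liver was higher for 8 members, male thyroid for 8 and male kidney for 6. C1qb showed the largest of these differences among the C1q chains, a log2 difference of 5.08 ± 0.30 (SE) between male liver and testis (adjusted p = 3.3e-08). Aif1 was higher in testis than in male liver, kidney and thyroid, and Cd163 was higher in testis than in kidney by a log2 difference of 3.63 ± 0.42 (SE, adjusted p = 8.9e-06). Male thyroid exceeded male kidney for 5 members (C1qa, C1qb, Gpnmb, Csf1r and Cd163), and male liver exceeded thyroid for 5 (the C1q chains, Marco and Cd68). Under TMM alone 77.5% to 78.1% of rows passed against testis in either direction, 49.9% for kidney against thyroid and 57.4% for liver against thyroid. Nothing is read from the member counts beside such shares.

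Among females, ovary exceeded kidney for 7 members (Aif1, the C1q chains, Cd68, Gpnmb and Cd163) and thyroid for 5 (the C1q chains, Clec12a and Gpnmb). These calls rest on the vehicle libraries, whose differences from treated ovaries and thyroids may have led to the choice of members. Aif1 averaged 76.1 CPM in vehicle ovary, 66.8 CPM in vehicle thyroid and 21.2 CPM in vehicle kidney. In the same order its means were 30.4, 28.8 and 31.3 CPM under BPA and 36.3, 19.8 and 20.8 CPM under Mix. Gpnmb was higher in ovary than in kidney by a log2 difference of 6.13 ± 0.69 (SE, adjusted p = 0.00025), in ovary than in liver by 3.28 ± 0.48 (SE, adjusted p = 0.00061) and in ovary than in thyroid by 2.16 ± 0.47 (SE, adjusted p = 0.0091). Clec12a was higher in ovary than in liver by a log2 difference of 4.99 ± 1.13 (SE, adjusted p = 0.0075). Between liver and ovary the C1q chains held no difference under both scalings: C1qa differed by 1.15 in favour of liver under TMM and by 0.09 under plain scaling. Female thyroid exceeded female kidney for 6 members and female liver exceeded thyroid for 3, the C1q chains. Marco passed in thyroid against ovary, and its thyroid counts are those of the replicates named above. The female counts moved with single rats. Leaving out the rat that gave kidney replicate 1 and replicate 2 of the other organs, the members past the threshold under TMM dropped from 9 to 3 for liver against kidney, from 6 to 0 for kidney against thyroid and from 8 to 3 for kidney against ovary, comparisons then left with 1 kidney library. Without the same rat they dropped from 8 to 2 for liver against ovary and from 6 to 1 for thyroid against ovary. Leaving out the rat that gave replicate 1 of liver, ovary and thyroid and no kidney, they were 3 in place of 6 for liver against thyroid, 4 in place of 8 for liver against ovary and 1 in place of 6 for thyroid against ovary. In males, kidney against thyroid was 3 in place of 5 without the rat of replicate 1 or that of replicate 3.

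Aif1 was the member with its highest level in testis. It lay between 484 and 604 CPM in all 9 testis libraries, with a median of 560 CPM, while its medians in the other 4 organs ran from 31.0 to 34.4 CPM. The testis level exceeded that of male liver by a log2 difference of 3.30 ± 0.21 (SE, adjusted p = 4.7e-08), of male kidney by 4.46 ± 0.22 (SE, adjusted p = 1.1e-08) and of male thyroid by 4.28 ± 0.22 (SE, adjusted p = 1.7e-08). In the same testes Csf1r, Cd68 and the C1q chains were each at or below 14.5 CPM. Outside the testis the highest Aif1 value was 206 CPM in male thyroid BPA replicate 1, beside 44.0 and 31.5 CPM in the other 2 BPA thyroids, and this is the thyroid library with 10191 CPM of Tnp1. It held 20.2 CPM of Aif1 per 1000 CPM of Tnp1, where the testes held 9.72 to 14.8. Whether its Aif1 comes with testis RNA was not tested.

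**Figure D2:**
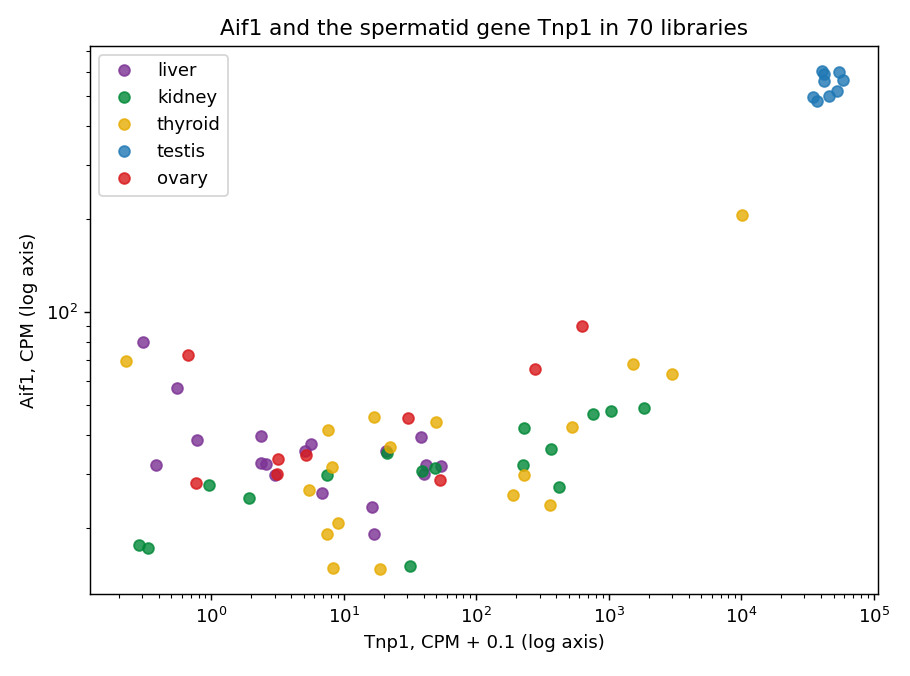
Aif1 in CPM (vertical, log axis) against the spermatid gene Tnp1 in CPM plus 0.1 (horizontal, log axis) in the 70 libraries, coloured by organ. The 9 testis libraries lie at 484 to 604 CPM of Aif1, and the thyroid library nearest to them is male BPA replicate 1 with 206 CPM of Aif1 and 10191 CPM of Tnp1.

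Vehicle males and females were compared within liver, kidney and thyroid in a fit of all 6 groups of sex and treatment per organ. In liver 4.23% of all rows passed, and of 9 members tested Marco passed: 90.8, 67.5 and 94.2 CPM in males against 31.7, 20.6 and 54.2 CPM in females. The groups did not overlap, and Marco was higher in males by a log2 difference of 1.29 ± 0.31 (SE, edgeR adjusted p = 0.0173). It passed in 9 of the 12 alternative fits (adjusted p from 0.000393 to 0.105) and did not pass without male vehicle replicate 1 (a log2 difference of 1.22), without female vehicle replicate 1 (1.22) or without female vehicle replicate 2 (1.02). The male vehicle livers are those of the comparisons where earlier results named macrophage genes, so this test is not free of the choice of members. Under BPA Marco averaged 19.2 ± 2.27 CPM in male and 27.5 ± 8.78 CPM in female livers (SD, n = 3 each). Under Mix the means were 37.9 ± 14.4 CPM in males and 21.2 ± 2.37 CPM in females (SD, n = 3 each). In kidney, where 6.13% of all rows passed, edgeR called 0 of 9 members and DESeq2 0, while 2 had an unadjusted p below 0.05. In thyroid 0% of rows passed, edgeR called 0 of 9 members and DESeq2 0 (0.841% of rows). There 1 of 9 had an unadjusted p below 0.05, beside 10.5% of all rows. In kidney Folr2, a folate receptor of resident macrophages, was the only one of 18 tested genes of a list of other macrophage genes to pass, beside 6.13% of all rows. It was higher in males by a log2 difference of 0.99 ± 0.26 (SE, edgeR adjusted p = 0.0339). A count of 1 in 18 is near that share, and nothing is read from it.

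In male liver Marco was lower under BPA. The vehicle livers held 90.8, 67.5 and 94.2 CPM, the BPA livers 19.8, 21.1 and 16.7 CPM and the Mix livers 53.7, 34.6 and 25.6 CPM. All treated livers lay below all vehicle livers, and the BPA livers also lay below the Mix livers. The log2 difference was -2.01 ± 0.26 (SE, 95% interval -2.57 to -1.44) for BPA against vehicle and -1.06 ± 0.25 (SE, 95% interval -1.61 to -0.52) for Mix against vehicle. Both are descriptions, since earlier results named macrophage genes in these comparisons. In BPA against vehicle 1 of 9 members tested passed, beside 0.228% of all rows, and in Mix against vehicle 0 of 9 passed, beside 0.321%. Mix against BPA was tested: Marco was higher under Mix by a log2 difference of 0.94 ± 0.26 (SE, 95% interval 0.39 to 1.497), which did not pass (edgeR adjusted p = 0.383), in a comparison where 0.0103% of all rows passed. Both groups also stand in the described comparisons with vehicle, so this test is not free of the choice of members. BPA against vehicle had 0 members past the threshold without BPA replicate 2, and Mix against vehicle had 1 without Mix replicate 1.

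The other 8 members tested in male liver did not pass. Their log2 differences from vehicle ran from -0.47 (Cd68) to 0.48 (Gpnmb) under BPA and from -0.58 (Cd163) to 0.59 (Gpnmb) under Mix. Clec12a was too low to be tested in either liver. Clec4f, Vsig4 and Cd5l, genes of liver-resident macrophages (Kupffer cells), belong to the list of 26 other macrophage genes present in the table, of which 21 were tested in male liver and none passed in any of the 3 comparisons. Their summed level was 1305 to 1416 CPM in vehicle, then 1172 to 1420 under BPA and 1224 to 1521 under Mix. These ranges overlap, and the median log2 difference of the 21 genes from vehicle was -0.02 under BPA and 0.01 under Mix, beside -0.01 and -0.00 for all rows.

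In female liver Gpnmb had the largest differences in the comparisons with BPA. It stood at 10.5, 10.5 and 12.3 CPM in vehicle, 22.4, 32.0 and 32.1 CPM in BPA and 7.52, 8.96 and 7.97 CPM in Mix livers. The 3 groups did not overlap, with BPA highest and Mix lowest. BPA against vehicle gave a log2 difference of 1.22 ± 0.26 (SE, 95% interval 0.67 to 1.76), which did not pass (edgeR adjusted p = 0.0578, in the alternatives from 0.00894 to 0.222). It passed with DESeq2, with plain library sizes and with no filter on low counts. The BPA livers are also those of Mix against BPA, where earlier results named macrophage genes, so this test is not free of the choice of members. Mix against vehicle gave -0.54 ± 0.26 (SE, 95% interval -1.10 to 0.02; edgeR adjusted p = 0.773). Mix against BPA, a description, gave -1.76 ± 0.26 (SE, 95% interval -2.32 to -1.20).

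Marco in female liver was 31.7, 20.6 and 54.2 CPM in vehicle, 21.4, 37.6 and 23.6 CPM in BPA and 20.01, 19.6 and 23.9 CPM in Mix livers. All 3 groups overlapped. Mix against vehicle was -0.84 ± 0.32 (SE, 95% interval -1.53 to -0.15; edgeR adjusted p = 0.630) and BPA against vehicle -0.52 ± 0.32 (SE, 95% interval -1.20 to 0.16; edgeR adjusted p = 0.576). No member passed in female liver: 0 of 9 in BPA against vehicle beside 0.419% of all rows, 0 of 9 in Mix against vehicle beside 0.0523%, and 0 of 9 in Mix against BPA beside 0%. All 9 tested members had a negative estimate in Mix against BPA, with a median of -0.67 beside 0.00 over all rows. The other macrophage genes had 18 of 22 negative estimates in the same comparison, a median of -0.39 and no gene past the threshold. Their summed level was 1363 to 1621 CPM in vehicle, then 1495 to 1948 under BPA and 1215 to 1296 under Mix. Earlier results named macrophage genes in Mix against BPA, and both gene lists were chosen with earlier results known. Nothing is read from their shared direction.

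**Figure D3:**
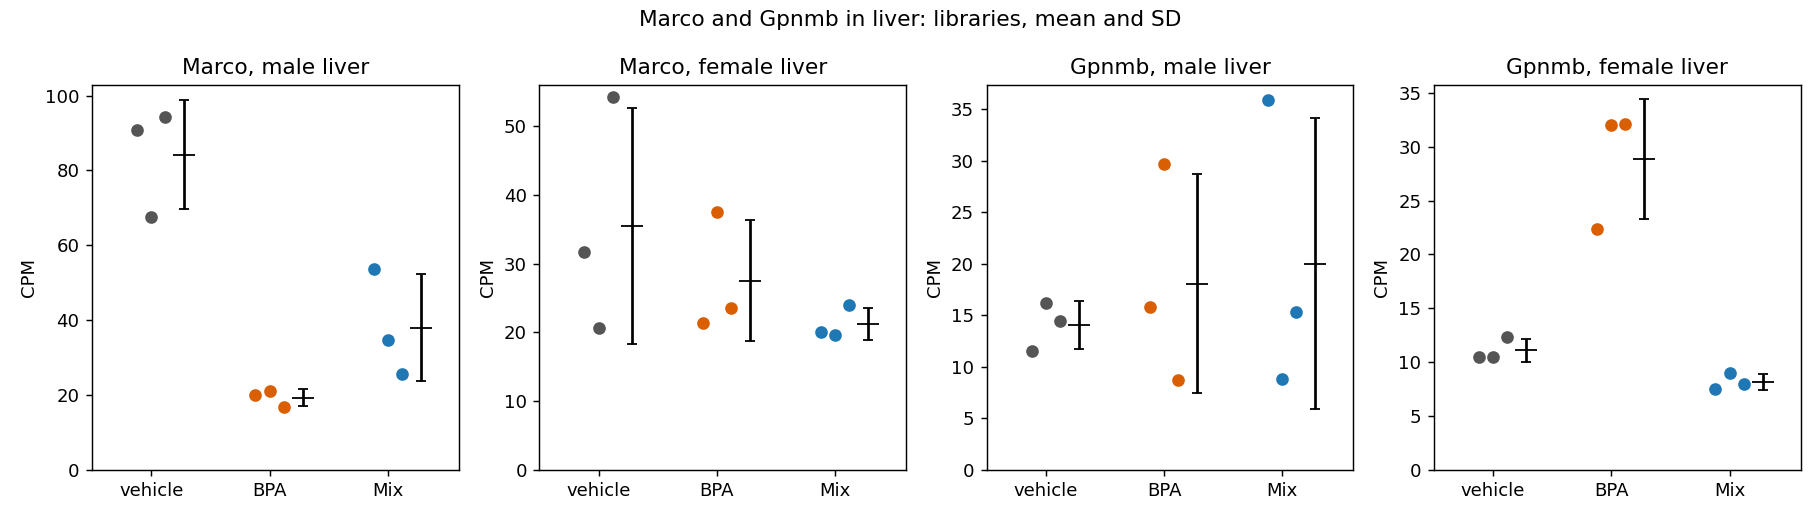
Marco and Gpnmb in CPM in liver of both sexes under vehicle, BPA and Mix; points are libraries, and the bar beside them is the mean with its SD (n = 3 each). Male Marco runs from 67.5 to 94.2 CPM in vehicle and from 16.7 to 21.1 CPM in BPA livers, and female Gpnmb from 22.4 to 32.1 CPM in BPA and from 7.52 to 8.96 CPM in Mix livers.

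In male kidney C1qc passed the test, between Mix and BPA. It stood at 24.7, 30.0 and 28.4 CPM in vehicle, 52.8, 54.0 and 52.5 CPM in BPA and 21.4, 25.6 and 19.3 CPM in Mix kidneys. Every BPA kidney lay above every other male kidney, and Mix overlapped vehicle. C1qc fell between BPA and Mix by a log2 difference of -1.18 ± 0.20 (SE, 95% interval -1.62 to -0.75; edgeR adjusted p = 0.0119, in the alternatives from 1.89e-05 to 0.0661), 1 of 8 members tested beside 2.93% of all rows. The call was lost without BPA replicate 2 (-1.17), without BPA replicate 3 (-1.18) and with plain library sizes (-0.87). Same-numbered BPA and Mix kidneys correlated in their deviations from the group means (0.223, 0.166 and 0.114). The main fit had no replicate block, and the call held in the alternative with that block. BPA against vehicle gave 0.84 ± 0.19 (SE, 95% interval 0.41 to 1.26), which did not pass (edgeR adjusted p = 0.0766, in the alternatives from 0.0070 to 0.342), and no member passed there beside 0.136% of all rows.

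The chains that assemble with C1qc did not show a like difference. C1qa was 16.8, 17.7 and 16.5 CPM in vehicle, 20.2, 17.4 and 19.7 CPM in BPA and 14.5, 19.2 and 13.5 CPM in Mix kidneys, so BPA and Mix overlapped. Its log2 difference between Mix and BPA was -0.19 ± 0.24 (SE, 95% interval -0.72 to 0.34; edgeR adjusted p = 0.779), and that of C1qb was -0.32 ± 0.26 (SE, 95% interval -0.89 to 0.26; edgeR adjusted p = 0.640). The difference between chains was not tested. Aif1 was 27.2, 32.1 and 36.1 CPM in vehicle, 42.3, 30.6 and 31.3 CPM in BPA and 49.0, 46.7 and 47.8 CPM in Mix kidneys, with Mix above both other groups. It did not pass against vehicle (0.56 ± 0.19, SE; edgeR adjusted p = 0.472) or against BPA (0.53 ± 0.19, SE; edgeR adjusted p = 0.189). Csf1r in Mix also lay above vehicle, by 0.22 ± 0.20 (SE; edgeR adjusted p = 0.737). In Mix against vehicle 0 of 8 members passed beside 0.0273% of all rows; Gpnmb had the largest estimate, with 5.36, 4.28 and 3.01 CPM in vehicle and 1.28, 3.64 and 17.6 CPM in Mix kidneys. Those groups overlapped (0.78 ± 0.72, SE; edgeR adjusted p = 0.741), and the sign turned to -0.71 without Mix replicate 3.

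Other features of the male kidney libraries moved with the same groups. Ribosomal RNA took 1.71% to 3.50% of the vehicle, 16.4% to 37.2% of the BPA and 1.42% to 20.2% of the Mix libraries. The 4 spermatid genes Tnp1, Prm1, Prm2 and Odf1 summed to 271 to 530 CPM in vehicle, then 49.8 to 263 under BPA and 959 to 2133 under Mix. All 4 passed as higher in Mix than in BPA, where 283 of 11000 rows passed as higher and 39 as lower. The spermatid list and the fibroblast list were chosen with earlier results known. Of 6 fibroblast genes 5 passed as lower in Mix than in BPA, and their sum was 361 to 587 CPM in vehicle, then 1370 to 1557 under BPA and 452 to 699 under Mix; Col3a1, a fibrillar collagen chain, differed most (-1.81 ± 0.26, SE; edgeR adjusted p = 0.00833). None of these genes was at 0 in all libraries of a group. Their part in the C1qc and Aif1 values was not tested; with the ribosomal RNA share as a covariate the C1qc log2 difference was -1.46. The other macrophage genes had 0 of 16 tested past the threshold in each of the 3 male kidney comparisons.

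In female kidney 0% of all rows passed in each of the 3 comparisons, and edgeR called 0 of 9 members in each. Gpnmb was 2.33 and 5.76 CPM in vehicle, 1.93 and 1.32 CPM in BPA and 0.701, 11.5 and 0.74 CPM in Mix kidneys, a spread within Mix wider than any distance between groups. C1qa was 15.8 and 11.1 CPM in vehicle, 29.8 and 16.6 CPM in BPA and 18.2, 21.1 and 24.1 CPM in Mix kidneys; vehicle lay below both treated groups, beside groups lying apart for 45.8% of all rows in BPA against vehicle and 27.3% in Mix against vehicle. Its log2 difference from vehicle was 0.97 under BPA, with a 95% interval from 0.15 to 1.80, and 0.76 under Mix, with a 95% interval from -0.00 to 1.52. With 2 libraries in each of 2 groups these intervals are wide.

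In male thyroid 0% of all rows passed in every comparison, and no member was called. Cd163 was 20.5, 12.9 and 16.2 CPM in vehicle, 4.85, 9.72 and 8.26 CPM in BPA and 6.68, 11.5 and 3.20 CPM in Mix thyroids. Both treated groups lay below vehicle, with log2 differences of -1.01 (95% interval -2.14 to 0.11) and -1.26 (95% interval -2.40 to -0.13). In the BPA libraries summed markers of other cells were also below vehicle without overlap: 5 endothelial genes at 120 to 231 CPM against 250.4 to 417 CPM, 6 fibroblast genes at 1813 to 3367 CPM against 3531 to 4510 CPM, and 4 thyroid-defining genes at 39426 to 71794 CPM against 74376 to 108802 CPM. In the Mix libraries these 3 sums overlapped vehicle, and their part in the Cd163 values was not tested. Aif1 gave the largest estimate between Mix and BPA, -1.85 (95% interval -3.40 to -0.31), which was -0.53 without BPA replicate 1, the library with 206 CPM of Aif1. Without that library its remaining BPA values of 44.0 and 31.5 CPM overlapped the Mix values of 26.5, 45.7 and 14.9 CPM.

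In female thyroid Aif1 was lower in treated rats. It stood at 63.0, 67.9 and 69.3 CPM in vehicle, 20.8, 41.6 and 23.8 CPM in BPA and 25.5, 19.1 and 14.7 CPM in Mix thyroids, so vehicle lay above both. The log2 difference was -1.37 ± 0.33 (SE, 95% interval -2.11 to -0.63) for BPA and -1.99 ± 0.34 (SE, 95% interval -2.75 to -1.23) for Mix. C1qa was 28.9, 33.6 and 46.7 CPM in vehicle against 16.1, 27.1 and 9.61 CPM in Mix thyroids, and Gpnmb 28.4, 21.96 and 109 CPM against 19.5, 10.8 and 21.1 CPM. Neither pair of groups overlapped, beside 28.5% of all rows whose Mix and vehicle groups lay apart; the log2 differences were -1.30 ± 0.41 and -1.91 ± 0.61 (SE). No member passed in BPA against vehicle, beside 0% of all rows, in Mix against vehicle, beside 0.00899%, or in Mix against BPA, beside 0%.

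Several features moved with these female thyroid groups. Ribosomal RNA took 0.66% to 3.26% of the vehicle, 1.93% to 7.41% of the BPA and 11.7% to 23.7% of the Mix libraries; with its share as a covariate the Mix log2 difference was 0.15 for C1qa, 0.37 for Gpnmb and -0.67 for Aif1, and the BPA difference of Aif1 was -0.81. Tnp1 was 3027, 1524 and 0.127 CPM in the 3 vehicle libraries. Without the first 2 of these, an alternative chosen after the data were seen, Aif1 differed from the remaining vehicle library by -1.52 under BPA and -2.12 under Mix. With the single vehicle library assumed to vary like the other groups, no count of members past the threshold is given for that fit. Markers of other cells moved as well. The 6 T cell genes summed to 0.127 to 5.15 CPM in vehicle thyroids, with 1 gene at 0 in all of them, to 5.67 to 82.7 CPM under BPA and to 5.52 to 12.1 CPM under Mix. The 5 dendritic cell genes summed to 0 to 3.43 CPM in vehicle, with 2 at 0 in all, to 4.90 to 7.90 CPM under BPA and to 7.09 to 9.20 CPM under Mix. Under Mix the endothelial genes summed to 235 to 356 CPM against 129.99 to 162 CPM in vehicle, and the thyroid-defining genes to 63239 to 87546 CPM against 27048 to 55985 CPM. Their part in the member values was not tested. Between Mix and BPA, Gpnmb was 19.5, 10.8 and 21.1 CPM against 36.4, 55.3 and 40.9 CPM, without overlap, a log2 difference of -1.44 (95% interval -2.77 to -0.10). Clec12a was counted in 1 of 3 BPA libraries at 0.263 CPM and in the Mix libraries at 1.95, 0.568 and 0.613 CPM, too few counts for a fold.

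Testis gave no member past the threshold, with 0 of 8 called in BPA against vehicle and in Mix against vehicle, beside 0% of all rows in both, and 0 of 8 in Mix against BPA, beside 0.775%. C1qa was 9.10, 5.75 and 8.06 CPM in vehicle, 7.54, 14.5 and 10.8 CPM in BPA and 5.37, 5.19 and 5.49 CPM in Mix testes. BPA lay above Mix without overlap, a log2 difference of -1.04 ± 0.27 (SE, 95% interval -1.64 to -0.45) for Mix against BPA, while vehicle overlapped BPA. Gpnmb was 3.41, 4.91 and 2.97 CPM in vehicle and 0.424, 2.00 and 2.14 CPM in Mix testes, without overlap (-1.28, 95% interval -2.32 to -0.24). Cd68 had the largest estimate between BPA and vehicle, 0.84, with 2.16, 1.30 and 1.27 CPM in vehicle and 3.49, 0.856 and 3.86 CPM in BPA testes, which overlapped. Aif1, at 484 CPM or more in every testis, differed from vehicle by 0.06 under BPA and -0.04 under Mix.

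In ovary Clec12a and Aif1 were lower in both treated groups. Clec12a was 51.4, 50.7 and 37.1 CPM in vehicle, 14.6, 8.01 and 8.31 CPM in BPA and 9.27, 7.56 and 8.63 CPM in Mix ovaries. Every treated ovary lay below every vehicle ovary, and the treated groups overlapped. The log2 difference was -2.30 ± 0.26 (SE, 95% interval -2.86 to -1.74) under BPA and -2.55 ± 0.26 (SE, 95% interval -3.12 to -1.98) under Mix. Aif1 was 65.6, 89.9 and 72.8 CPM in vehicle, 28.6, 28.0 and 34.4 CPM in BPA and 30.0, 45.5 and 33.5 CPM in Mix ovaries. Here too vehicle lay above both treated groups, with log2 differences of -1.47 ± 0.20 (SE, 95% interval -1.91 to -1.03) under BPA and -1.17 ± 0.20 (SE, 95% interval -1.61 to -0.74) under Mix. Both treated groups were set against the same 3 vehicle libraries.

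The C1q chains in ovary moved less. C1qa was 95.4, 137 and 78.3 CPM in vehicle, 73.8, 56.7 and 47.6 CPM in BPA and 50.2, 86.9 and 69.4 CPM in Mix ovaries, so BPA lay below vehicle and Mix overlapped it. C1qc was 120, 148 and 135 CPM in vehicle, 104, 60.05 and 67.5 CPM in BPA and 66.8, 108 and 98.4 CPM in Mix ovaries, both below vehicle. C1qb was 141, 160 and 129 CPM in vehicle and 130, 54.0 and 65.7 CPM in BPA ovaries, which overlapped. Under BPA the log2 differences were -0.94 ± 0.25 for C1qa, -0.93 ± 0.27 for C1qb and -0.94 ± 0.22 for C1qc, and under Mix -0.69 ± 0.24, -0.52 ± 0.27 and -0.67 ± 0.22 (SE).

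In BPA against vehicle ovary 4 of 9 members tested passed, all lower (Aif1, C1qa, C1qc and Clec12a), beside 6.79% of all rows; in Mix against vehicle 2 of 9 passed, both lower (Aif1 and Clec12a), beside 9.12%; in Mix against BPA 0 of 9 passed beside 0.212%. Since these results may have led to the choice of members, nothing is read from the counts. The BPA count was 2 with plain library sizes and 1 (Clec12a) with the ribosomal RNA share as a covariate, where Aif1 differed by -1.05. It was 2 without vehicle replicate 2, BPA replicate 2 or BPA replicate 3. The Mix count was 4 without Mix replicate 2. Vehicle replicates 1 and 2 held Tnp1 (275 and 624 CPM) and Alb (180 and 274 CPM). Leaving out both left 1 vehicle library, so that fit cannot decide whether the calls hold, and no count is given for it.

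Gpnmb in ovary varied within the treated groups. It was 227, 241 and 220 CPM in vehicle, 240, 86.5 and 136 CPM in BPA and 129, 474 and 76.8 CPM in Mix ovaries, so all groups overlapped. Mix replicate 2, with the highest Gpnmb value of the 70 libraries, also had the highest Cd68 value, 64.0 CPM beside 15.3 to 28.6 CPM in the other 8 ovaries. Without it the Cd68 log2 difference between Mix and BPA turned from 0.73 to -0.10. Csf1r was 30.7, 21.99 and 22.3 CPM in vehicle, 29.8, 28.5 and 35.1 CPM in BPA and 39.8, 50.4 and 32.7 CPM in Mix ovaries, an estimate of 0.17 under BPA and 0.61 under Mix that did not pass; Cd163 differed from vehicle by -0.29 and -0.28.

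Markers of other cells moved with the ovary groups. Of 21 tested other macrophage genes 1 passed in each comparison with vehicle, beside 6.79% of all rows under BPA and 9.12% under Mix. It was Tyrobp, an adaptor of myeloid receptors, lower by a log2 difference of 1.22 under BPA and 1.01 under Mix. The list summed to 1473 to 1721 CPM in vehicle, then 1118 to 1172 under BPA and 1139 to 1880 under Mix. The 6 neutrophil genes summed to 21.9 to 31.1 CPM in vehicle, then 4.77 to 9.52 under BPA and 8.40 to 11.7 under Mix, with 1 gene at 0 in all vehicle libraries, 2 in all BPA and 1 in all Mix libraries. Of the 2 neutrophil genes tested S100a9 passed as lower, by 2.53 under BPA and 1.51 under Mix. The 6 T cell genes summed to 21.6 to 30.3 CPM in vehicle, then 16.4 to 29.4 under BPA and 16.5 to 20.8 under Mix, with none of 4 tested past the threshold. Of the 3 ovary-defining genes in the table, which granulosa cells express, Cyp19a1, the aromatase of oestrogen synthesis, passed as higher in both treated groups, by 1.60 under BPA and 2.23 under Mix, and Amh as higher under BPA by 1.48. The 5 endothelial genes summed to 155 to 161 CPM in vehicle, 191 to 222 CPM under BPA and 191 to 314 CPM under Mix, and the 6 fibroblast genes to 3941 to 4345 CPM, 4642 to 4903 CPM and 3629 to 4610 CPM. Ribosomal RNA took 20.7% to 29.4% of the vehicle, 12.4% to 19.1% of the BPA and 18.7% to 23.8% of the Mix libraries. The part of these features in the Clec12a and Aif1 differences was not tested. Among 7 tested other genes of the classical complement pathway that C1q opens, C4a, C4b and the inhibitor Serping1 passed as higher under Mix, with log2 differences of 0.99, 1.13 and 0.75.

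**Figure D4:**
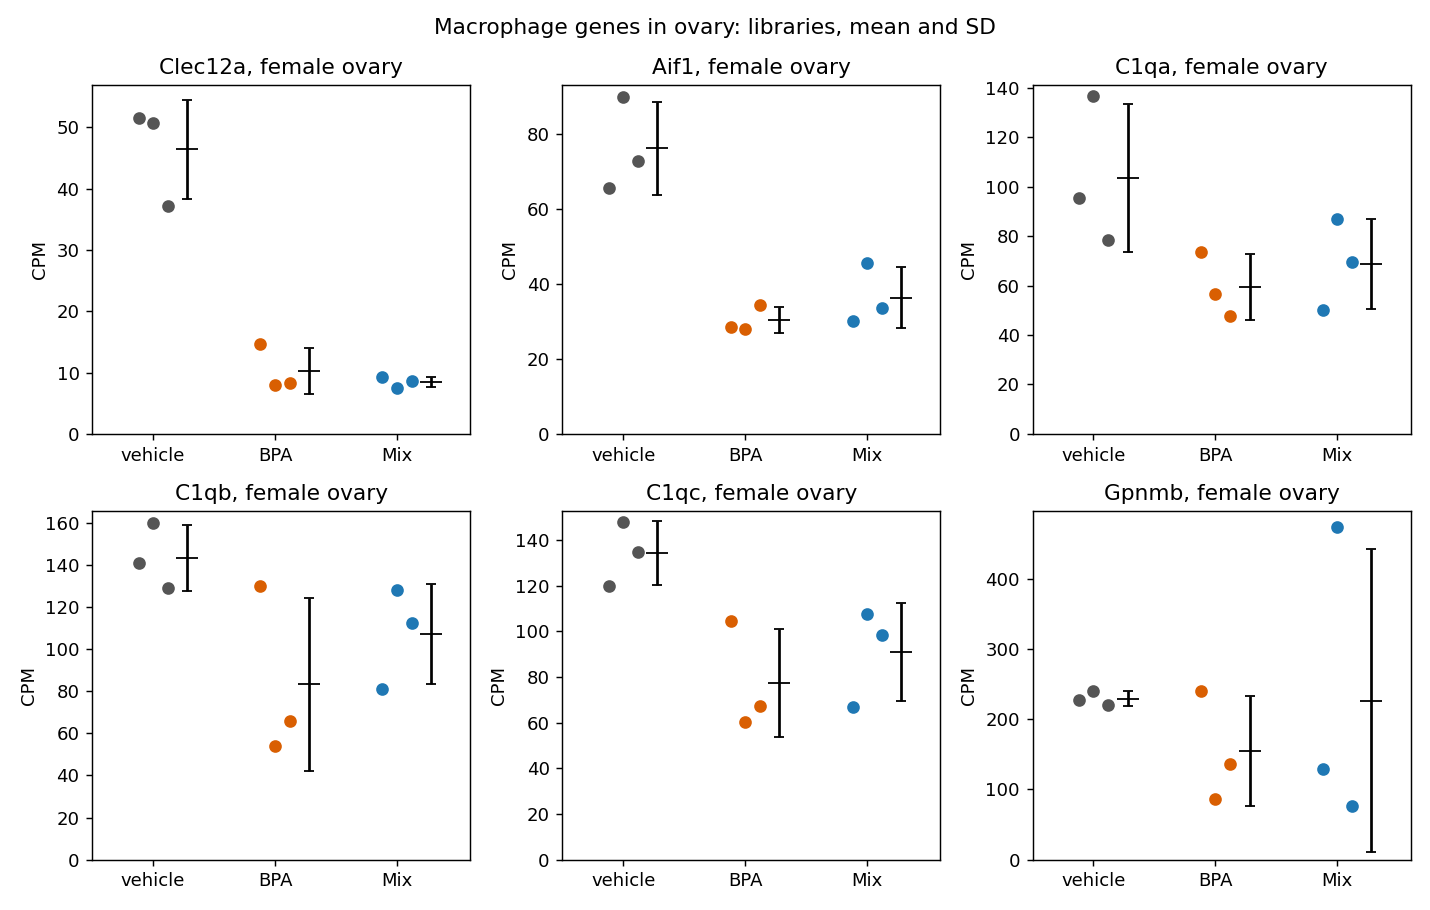
Clec12a, Aif1, the C1q chains and Gpnmb in CPM in ovary under vehicle, BPA and Mix; points are libraries, and the bar beside them is the mean with its SD (n = 3 each). Clec12a runs from 37.1 to 51.4 CPM in vehicle and from 7.56 to 14.6 CPM in treated ovaries, while a Mix ovary holds 474 CPM of Gpnmb.

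The 24 treatment comparisons are set side by side in the heat map; those of male liver against vehicle, female liver Mix against BPA, female kidney, thyroid, testis and ovary are descriptions. Where edgeR called 0 members, the number at an unadjusted p below 0.05 is given beside the share of all rows at that p. For the comparisons that are descriptions nothing is read from these counts, since their results led or may have led to the choice of members. In male liver it was 2 of 9 for Mix against vehicle (6.71% of rows) and 3 of 9 for Mix against BPA (6.18%). In female liver it was 1 of 9 for BPA against vehicle (11.4%), 2 of 9 for Mix against vehicle (6.62%) and 6 of 9 for Mix against BPA (6.50%). In kidney it was 1 of 8 for male BPA (21%) and 1 of 8 for male Mix (9.20%) against vehicle, and 1, 0 and 0 of 9 in the female comparisons (16.4%, 10.4% and 7.29%), in the order BPA against vehicle, Mix against vehicle, Mix against BPA. In the same order it was 1, 1 and 1 of 9 in male thyroid (8.23%, 4.96% and 13.8%), 2, 4 and 2 of 9 in female thyroid (13.3%, 23% and 5.84%) and 0, 1 and 1 of 8 in testis (12%, 5.33% and 17.2%). In ovary Mix against BPA it was 0 of 9 (12%). DESeq2 called 1 member in male liver Mix against vehicle (0.972% of rows), female liver BPA against vehicle (1.99%) and Mix against BPA (0.283%), male kidney BPA against vehicle (7.37%), female thyroid BPA against vehicle (1.89%) and testis Mix against BPA (4.03%), and 3 in female thyroid Mix against vehicle (12.3%). It called 0 in the other comparisons where edgeR called none. Groups that do not overlap, as described for single members, were found for 9.57% to 45.8% of all rows over the 24 comparisons.

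**Figure D5:**
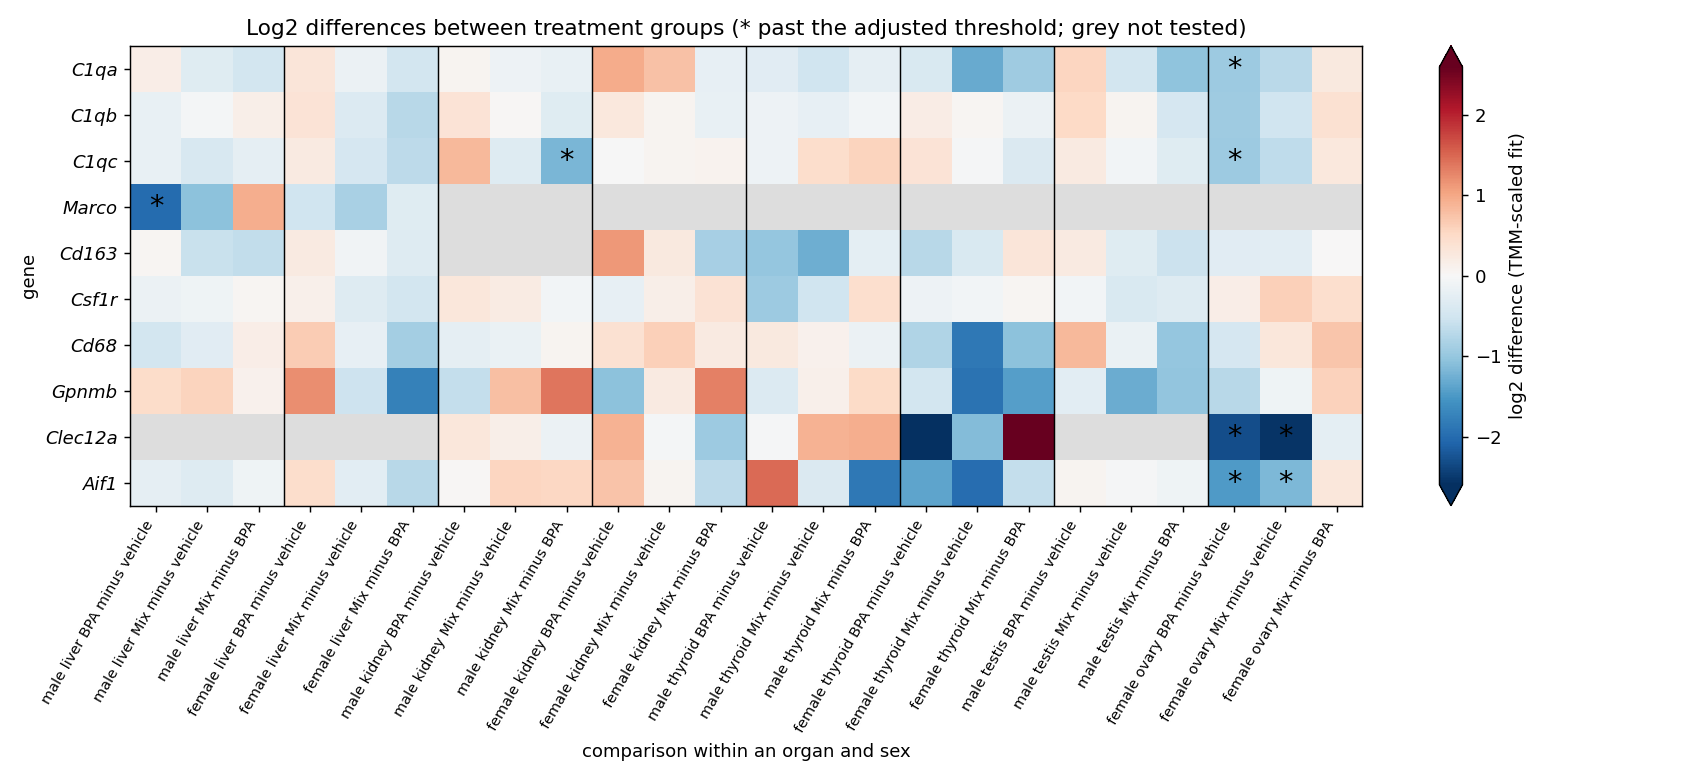
Log2 differences of the 10 members in the 24 treatment comparisons, from the TMM-scaled fit, red for higher and blue for lower in the first-named group, grey where a gene was too low to be tested and a star where the adjusted threshold was passed. Stars fall on Marco in male liver, C1qc in male kidney and 6 cells of ovary; Clec12a in female thyroid lies beyond the colour scale on very low counts.

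The members also differed in how they moved together. Over the 70 libraries, which differ in organ, the log2 levels of the C1q chains correlated with each other at 0.90 to 0.93, while Aif1 correlated with the mean of the standardised members at -0.41. Over deviations from the group means, which leave out organ, sex and treatment, the chains correlated at 0.26 to 0.57, and 34 of 45 member pairs were positive, with a median of 0.23. These correlations share library depth and have no test. The genes most like the members' mean over all libraries were Prkcdbp (0.92), Maoa, Zcchc24, C1s, C4a, Gch1, C4b and Blvrb (0.88). Over deviations they were Tyrobp (0.72), MGC112715, Pld4, Fcer1g, Cfp, Clec10a, Ifitm1 and Lcp1 (0.60).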

How the data were processed

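Gene counts of 70 libraries were used as the authors deposited them: whole-number read counts for 17048 gene rows, not normalized. Per the submitters' processing notes the tools were FastQC, Bowtie2, bedtools and edgeR and the build rn6, with no versions; strand handling, the treatment of reads that match several places and their order of use are not given in the sources used here, so reads of near-identical or overlapping genes cannot be told apart. Counts per library ran from 4803807 to 10929957, and counting error at low values limits Clec12a, Marco and Cd163 outside the organs where they are high.

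CPM values leave the rows of ribosomal RNA out of the total. Each organ and sex was fitted with edgeR 4.0.16 (R 4.3.3, limma 3.58.1), with TMM scaling, filterByExpr, the quasi-likelihood test and Benjamini-Hochberg adjustment over all rows tested, at an adjusted threshold of 0.05. Organs were compared in vehicle rats with the rat as a block, the sexes in 1 fit per organ. The procedure was tested on simulated data. Alternatives were DESeq2 1.42.0, other scalings, no filter on low counts, a replicate block, the ribosomal RNA share as a covariate and leaving out each library. P-values of the treatment and sex comparisons measure the spread between rats of a group, whose litters are not given. Those of the organ comparisons measure the spread that is left once the rat is a block.

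The members and the gene lists were chosen with earlier results of these data known. Values per library are given for members past the threshold, for those whose groups do not overlap with a log2 difference of at least 1, and otherwise for the member with the largest difference; a few further members are given for comparison and were chosen after their values were seen. Likeness is Pearson's r of log2(CPM + 1) with the members' mean, over 12393 rows with a mean of at least 1 CPM. Libraries of the same group differed by more than sampling noise in every pair. Replicate numbers pair libraries across 2 groups where all same-numbered pairs correlate above 0.1 in their deviations from the group means; this held for male kidney BPA and Mix (0.223, 0.166 and 0.114) and for no other pair of groups.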

Additional observations from a re-analysis of the deposited data

How the results depend on the processing

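Of 479 alternative counts of members past the threshold, 294 were 0 beside a main count of 0, which says little of stability; where the main count was above 0, 133 of 158 were within 1.5 times of it. DESeq2 called 1 member in male liver Mix against vehicle, female liver BPA against vehicle and Mix against BPA, male kidney BPA against vehicle, female thyroid BPA against vehicle and testis Mix against BPA, and 3 in female thyroid Mix against vehicle. Plain library sizes gave 1 in male liver Mix against vehicle, in female liver BPA against vehicle and Mix against BPA and between the sexes in kidney, 2 in ovary BPA against vehicle and 4 in female liver against ovary. With no filter on low counts 1 member passed in male liver Mix against vehicle and in female liver BPA against vehicle and Mix against BPA. With the ribosomal RNA share as a covariate 1 passed in testis Mix against BPA and 1 in ovary BPA against vehicle, and the sign turned in female thyroid Mix against vehicle for C1qa (0.15) and Gpnmb (0.37). Leaving out both vehicle libraries with the most Tnp1 and Alb, chosen after seeing the data, left 1 vehicle library in female thyroid and in ovary. No count of members is given for those fits. The causes were not tested.

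Leaving out 1 library gave 0 to 1 members in male liver BPA and Mix against vehicle, female liver Mix against BPA, male kidney BPA against vehicle and Mix against BPA, female thyroid BPA against vehicle, testis Mix against BPA and the sexes in liver. It gave 0 to 3 in female thyroid Mix against vehicle, 2 to 5 in ovary BPA against vehicle and 2 to 4 in ovary Mix against vehicle. Leaving out 1 vehicle rat gave 8 to 9 in male liver against kidney, 3 to 5 in male kidney against thyroid and 7 to 8 in male kidney against testis. In females it gave 3 to 9 for liver against kidney, 3 to 7 for liver against thyroid, 2 to 6 for liver against ovary, 0 to 6 for kidney against thyroid, 3 to 8 for kidney against ovary and 1 to 6 for thyroid against ovary. Single genes turned sign without Mix replicate 3 (Gpnmb in male kidney Mix against vehicle, from -0.71 to 1.26 over the libraries left out) and without Mix replicate 2 (Cd68 in ovary Mix against BPA, from -0.10 to 1.04).

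Deviations of same-numbered libraries correlated above 0.1 in 9 of 69 pairs, 5 of them in male kidney. With the replicate block 1 member passed in female liver Mix against BPA in place of 0, and no other count of members passing in a treatment comparison changed by over 1.5 times.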
